A study of Mus musculus with 5 samples.

Results

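The distal 12 bins of each autosome are the 1 Mb windows that lie farthest from the centromere on mouse chromosomes 1 to 19. On each chromosome they are the 12 bins with the largest start among bins whose mean over the all-read columns of the 5 libraries was at least 100 reads. The rule uses total reads and position, not ChIP over input. It gave 228 bins, out of 2414 counted autosomal bins and 2738 bins in the count table; the 2186 remaining autosomal bins are called the other bins. The study measured SIRT7 by chromatin immunoprecipitation and sequencing (ChIP-seq) in female cells of the type TTF, an abbreviation the labels do not spell out, from a C57BL6/CAST hybrid strain. The groups were WT ChIP (2 libraries), SIRT7-KO ChIP (1 library), WT input (1 library) and SIRT7-KO input (1 library), with no treatment named. Both genotypes are labelled as C57BL6 and CAST hybrids, and reads were counted in total and for genome1 and genome2. The genome1 share of input reads varied by region and between genotypes, so WT and KO were not matched in parental DNA. The breeding is not given. The labels say neither how the KO was made nor whether the WT ChIP libraries are separate cultures; the spread behind each p-value is that of these libraries alone and may be technical.

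SIRT7 is an NAD-dependent deacetylase of the sirtuin family that is concentrated in the nucleolus, where it is known for its association with ribosomal RNA genes, and it also removes acetyl groups from histone H3. Input is sheared chromatin that was not immunoprecipitated, and ChIP over input above that of neighbouring DNA shows relative recovery by the antibody. Mouse autosomes have their centromere next to the start of the sequence, so each has a single long arm and the bins with the largest coordinates adjoin the distal telomere. Telomere-near DNA of mammals is often rich in genes, GC and recombination.

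The promoters of 4 genes are printed as examples of annotated sequence in distal bins with high and with low WT signal; they do not stand for the whole bins. They are the 250 bases before the annotated start of the gene with the longest overlap with its bin, among genes that start there and whose window is clear of other genes, from RefSeq (GRCm38.p6), written 5′ to 3′ on the gene's strand with CpG dinucleotides in capitals. Prdm16 and Ajap1 lie in high bins, and Adgrl4 and Fgf10 in low bins. A 1 Mb bin does not resolve a promoter, so no ChIP value belongs to these letters themselves.
Prdm16, chr4:154636874-154637123, minus strand: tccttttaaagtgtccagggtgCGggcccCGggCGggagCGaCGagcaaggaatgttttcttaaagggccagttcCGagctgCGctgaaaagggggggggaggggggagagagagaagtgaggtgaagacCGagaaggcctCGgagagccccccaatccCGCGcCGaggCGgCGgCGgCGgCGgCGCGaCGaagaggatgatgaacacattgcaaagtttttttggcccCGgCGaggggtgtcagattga
Ajap1, chr4:153482831-153483080, minus strand: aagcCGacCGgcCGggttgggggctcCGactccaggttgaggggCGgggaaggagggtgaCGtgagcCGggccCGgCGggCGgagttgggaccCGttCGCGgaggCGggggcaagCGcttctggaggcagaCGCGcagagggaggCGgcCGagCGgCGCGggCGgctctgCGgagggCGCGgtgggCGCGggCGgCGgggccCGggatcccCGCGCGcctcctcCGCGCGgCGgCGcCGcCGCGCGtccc
Adgrl4, chr3:151437632-151437881, plus strand: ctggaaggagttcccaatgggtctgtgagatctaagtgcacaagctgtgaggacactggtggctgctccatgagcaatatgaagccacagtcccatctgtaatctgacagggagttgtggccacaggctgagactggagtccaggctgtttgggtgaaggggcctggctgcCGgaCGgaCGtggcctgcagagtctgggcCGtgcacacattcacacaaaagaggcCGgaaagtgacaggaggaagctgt
Fgf10, chr13:118714449-118714698, plus strand: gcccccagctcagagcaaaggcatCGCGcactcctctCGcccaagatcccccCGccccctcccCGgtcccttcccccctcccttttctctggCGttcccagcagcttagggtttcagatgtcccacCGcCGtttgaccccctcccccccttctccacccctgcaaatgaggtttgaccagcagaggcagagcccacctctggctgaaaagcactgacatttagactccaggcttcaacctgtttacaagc
The windows of Prdm16 and Ajap1 held 22 and 43 CpG, and those of Adgrl4 and Fgf10 held 5 and 8. Over all 1713 distal promoters with a RefSeq window the median was 12 CpG and a GC content of 57.6%, against 10 CpG and 55.6% for 14744 promoters of the other bins. The telomere repeat unit TTAGGG, searched on both strands, occurred in 11.0% of distal and 9.04% of other promoter windows.

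The WT ChIP libraries had totals of 174003957 and 167007601 reads, the KO ChIP library 4968189, the WT input 224205689 and the KO input 219168466. The distal bins held 8.65% and 8.59% of the WT ChIP reads and 8.56% of the KO ChIP reads, against 8.16% and 8.17% of the WT and KO input reads. A median distal bin had 61858 and 59594 reads in WT ChIP but 1804.5 in KO ChIP, whose median counting error was 0.034 on the log2(ChIP/input) scale. The KO ChIP library also stood apart in its allelic reads: its genome1 share moved from the KO input toward the WT share on 18 of 19 autosomes, by an amount that reads like those of WT ChIP would give at 7.34% of the library. Values that rest on KO ChIP are given as deposited. The KO distal excess, the percentage of WT minus KO calls and the allelic calls are therefore also given with those reads subtracted. The labels give no batch.

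In WT cells the distal bins lay above the other autosomal bins. Their median log2(ChIP/input), computed from TMM-scaled CPM plus 1, was 0.087 in WT replicate 1 and 0.084 in replicate 2, against -0.0088 and -0.0077 in the other bins. The differences of 0.096 and 0.092 correspond to 1.07-fold in both libraries. Both libraries were divided by the same WT input, so they share its error. Adjusted for all 2582 autosomal and X bins (edgeR quasi-likelihood test, Benjamini-Hochberg adjusted p under 0.05), 132 distal bins were above input and 45 below. That is 57.9% and 19.7% of the 228, where the background over all tested bins was 37.6 percent above and 37.5 percent below, 75.1 percent in all. The other autosomal bins had 36.2% above and 39.5% below, but among them ranks 13 to 24 had 55.3% above and 28.9% below. With the KO ChIP library left out of the fit the distal counts were again 132 and 45, where the background was 75.1 percent as well. That library has its own group mean and adds no residual spread, so this fit is no separate check. Under TMM scaling taken from autosomes alone the distal counts were 123 and 55, with a background of 75.8 percent. Bins are not replicates, so the difference in medians has no test.

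The highest distal bin held Prdm16, a regulator of brown fat and craniofacial development, with Megf6 and Trp73, a member of the p53 family (chromosome 4, 154000001 to 155000000). It had 64170 and 59834 reads in WT ChIP against 56360 in WT input, and 2005 in KO ChIP against 64826 in KO input. The WT libraries gave log2(ChIP/input) of 0.55 and 0.52 and KO gave 0.44, so all 3 ChIP libraries stood above their input. Next to it, the bin of Ajap1, an adherens junction protein, had 61545 and 58996 WT ChIP reads against 56534 in WT input (chromosome 4, 153000001 to 154000000). Its values were 0.49 and 0.50 in WT and 0.51 in KO, so that KO lay close to both WT libraries. The bins of Acot7, Kcnab2 and Nphp4 (chromosome 4, 152000001 to 153000000, WT fit 0.40) and of Camta1, Dnajc11 and the clock gene Per3 (chromosome 4, 151000001 to 152000000, 0.31) continued this run, so that ranks 3 to 6 from the end of chromosome 4 were all among the 10 highest.

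The remaining members of the 10 highest were on chromosomes 2, 8, 11 and 12. The bin of the cadherin gene Cdh4 and of Taf4, a subunit of the general transcription factor TFIID, had 87370 and 81249 WT ChIP reads against 81578 in input (chromosome 2, 179000001 to 180000000; log2 0.46 and 0.43 in WT and 0.34 in KO). The bin of Bmp7, a bone morphogenetic protein, had 0.44 and 0.41 in WT and 0.41 in KO (chromosome 2, 172000001 to 173000000). On chromosome 11 the bin of the adhesion gene Sdk2 with Ttyh2 and Dnaic2 (114000001 to 115000000) had 0.44 and 0.42 in WT and 0.31 in KO. That of Rbfox3, a neuronal splicing factor, with Dnah17 and Cyth1 (118000001 to 119000000) had 0.37 and 0.37 in WT and 0.29 in KO. Brf1, a subunit of the RNA polymerase III factor TFIIIB, lies with Tdrd9 and Kif26a in a bin with a WT fit of 0.33 (chromosome 12, 112000001 to 113000000), and the junctophilin gene Jph3 in one with 0.32 (chromosome 8, 121000001 to 122000000). All 10 had WT standard errors of 0.019 to 0.020 in the edgeR quasi-likelihood fit, and their Benjamini-Hochberg adjusted p ran from 4.62e-145 to 3.63e-54.

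The lowest distal bins departed less from input than the highest. The bin of Adgrl4, an adhesion receptor of endothelium, with Ptgfr and Ifi44 had 66361 and 63258 WT ChIP reads against 97678 in WT input (chromosome 3, 151000001 to 152000000). Its log2 values were -0.19 and -0.19 in WT and -0.21 in KO. The bin of Fgf10, a growth factor of limb and lung buds, and Mrps30, a mitochondrial ribosomal protein, had -0.19 and -0.18 in WT and -0.23 in KO (chromosome 13, 118000001 to 119000000). Both were below input in all 3 ChIP libraries. The other 3 of the 5 lowest were the most distal bins of their chromosomes: that of Wls, needed for Wnt secretion, with Depdc1a and Rpe65 on chromosome 3 (WT fit -0.17), that of Bicd1, Dennd5b and Amn1 on chromosome 6 (-0.17) and that of Tmem196 on chromosome 12 (-0.22, SE 0.092; edgeR quasi-likelihood, Benjamini-Hochberg adjusted p 0.0255). The chromosome 6 bin did not pass with no dispersion floor (edgeR, adjusted p 0.161).

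The signal was not even along the 12 bins. In the most distal bin the median over the 19 autosomes was -0.062 and -0.036 in the WT libraries, and in the next bin -0.037 and -0.0089. It was highest in the fourth bin, at 0.14 and 0.16 in WT and 0.12 in KO, where 15 and 16 of 19 chromosomes in the WT libraries and 16 in KO were above the median of their own other bins. From the fifth to the tenth bin the medians stayed between 0.091 and 0.13 in WT, and in the 12th they were 0.028 and 0.024. Farther in, the medians did not stay low: the 13th bin had 0.026 and 0.023, but the 14th had 0.11 and 0.11. Ranks 13 to 24 together had 0.047 and 0.068 in WT and 0.046 in KO, so the distal 12 exceeded them by 0.040 and 0.016 in WT and by 0.0053 in KO. The 12 counted bins nearest the centromere had -0.00060 and -0.0029 in WT, and the interior -0.015 and -0.014.

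**Figure D1:**
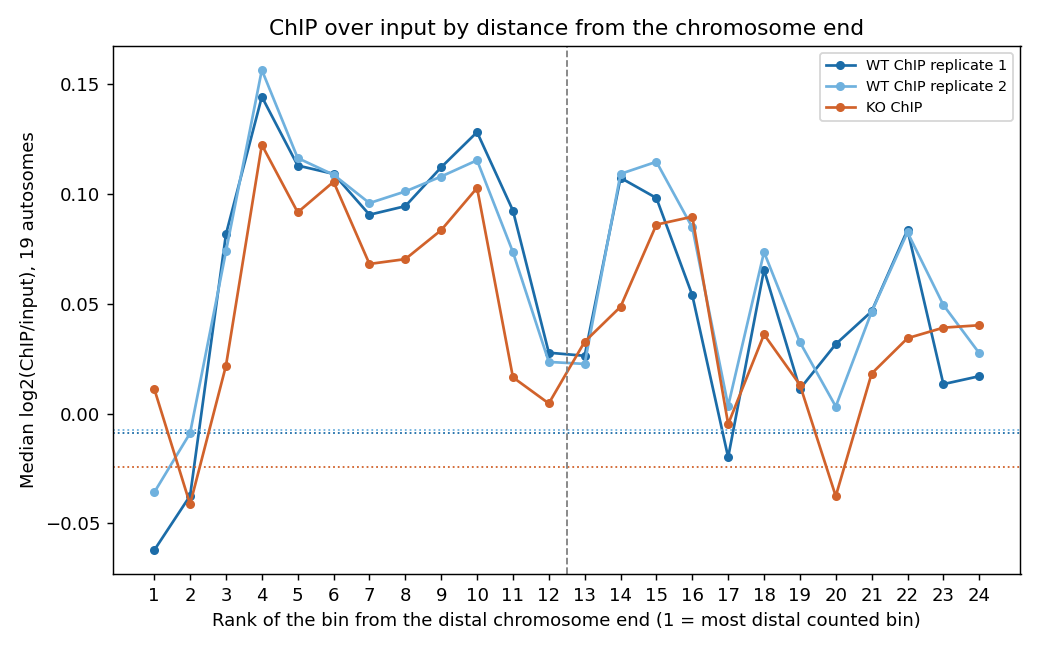
Median log2(ChIP/input) over the 19 autosomes (y axis) by rank of the bin from the distal end (x axis, rank 1 most distal), 1 line per ChIP library; dotted lines are the medians of all other autosomal bins and the dashed line is the edge of the distal 12. All 3 libraries are highest at rank 4, and the WT libraries lie below their dotted line only at ranks 1, 2 and, in WT replicate 1 alone, 17.

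The 19 most distal bins were low in WT, a trait that the bins of rank 2 partly shared. Of these 19 bins, 16 were partial bins cut off by the chromosome end; on chromosomes 3, 11 and 15 the final partial bin had 0 reads and fell under the minimum, so that a full bin came first. In the WT fit 5 of the 19 were above input and 10 below, against 127 above and 35 below for the 209 bins of ranks 2 to 12. Among the latter, rank 2 alone had 6 above and 8 below. The most distal bin lay under the median of its own chromosome's ranks 2 to 12 on 18 of 19 chromosomes in each WT library and on 15 in KO. In KO its median was 0.011, with 1 bin above input and 4 below, and it lay under its own chromosome's other bins on 7 chromosomes, compared with 15 and 14 for the WT libraries.

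Read content of the most distal bins also differed. Their median share of WT input reads assigned to a genome was 36.3%, against 58.9% over all distal bins and 56.4% in the other bins. It rose over the next bins, to 48.4% at rank 2 and 53.4% at rank 3. The most distal bins held a median of 4 protein-coding genes per bin. Their median width was 0.595 Mb, so this does not show a lower gene density. For reads assigned to genome1 and genome2 the most distal bins had medians of 0.039 and 0.022 in WT replicate 1, and for unassigned reads -0.092. The other bins had 0.0496, 0.0516 and -0.089, so lower values for unassigned reads were not particular to the most distal bins. In WT replicate 2 the most distal bins had -0.004, -0.0153 and -0.0637, and the other bins 0.0165, 0.0161 and -0.0398. Their promoters held a median of 6 CpG. KO counting errors there ran from 0.028 to 0.28. The part of these properties in the low values was not tested.

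Chromosomes differed in whether their distal bins were high. The distal median was above that of the same chromosome's other bins on 15 and 14 of 19 chromosomes in the WT libraries and on 15 in KO, 13 of them in all 3. In WT the highest distal medians were on chromosome 2 (0.22 and 0.20 in WT, 0.17 in KO), chromosome 11 (0.21 and 0.23, 0.26) and chromosome 7 (0.21 and 0.22, 0.23); in KO, chromosome 4 (0.24) came second to chromosome 11. On chromosome 4 all 12 distal bins were above input in the WT fit. The lowest in WT were on chromosome 13 (-0.041 and -0.050 in WT, -0.12 in KO), chromosome 3 (-0.030 and -0.044, -0.093) and chromosome 14 (-0.030 and -0.046, -0.011); in KO, chromosomes 10 (-0.025) and 18 (-0.016) were lower than chromosome 14. Chromosomes 13, 14 and 17 were below their own other bins in all 3 libraries.

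**Figure D2:**
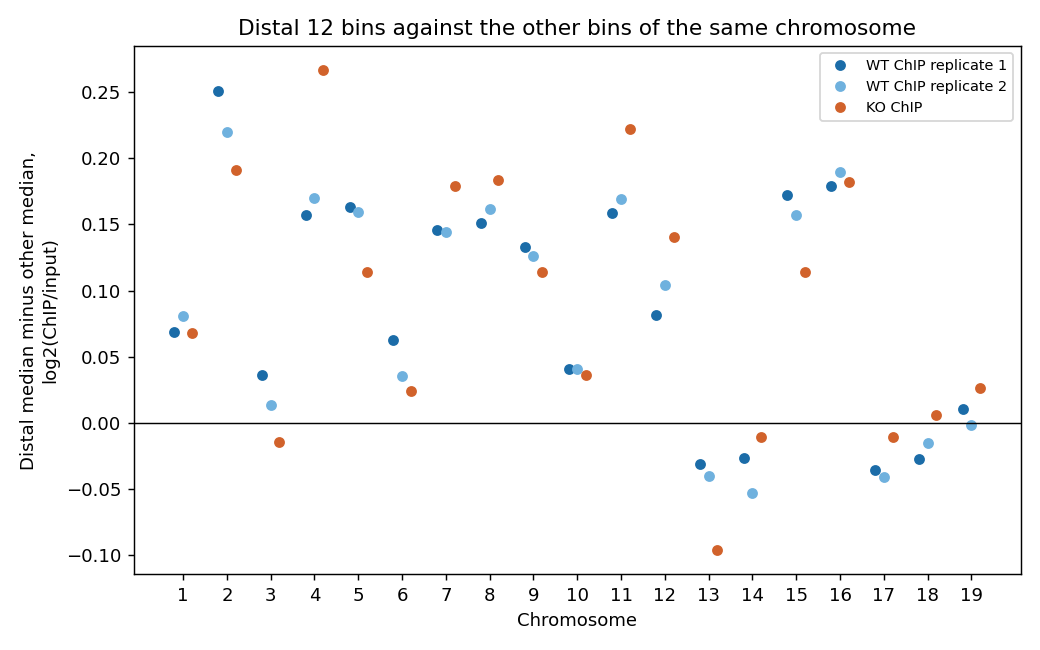
Difference between the median log2(ChIP/input) of the distal 12 bins and that of the other bins of the same chromosome (y axis) for each autosome (x axis), 1 point per ChIP library. Points of all 3 libraries are above 0 on 13 chromosomes and below 0 on chromosomes 13, 14 and 17.

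Gene number moved with these differences. On the 10 chromosomes whose distal bins held more protein-coding genes per bin than their other bins, the distal median was higher on 10 in WT (mean of both libraries) and on 10 in KO. On the 9 with as many or fewer, it was higher on 5 in WT and 5 in KO. Across the 19 chromosomes, which share libraries and inputs, the gene-number difference and the ChIP difference had a Pearson's r of 0.777 in WT and 0.669 in KO, given as a description. Summed over distal bins the count of protein-coding genes was 2220, with a gene counted once in each bin it overlaps. The median was 7 per distal bin, against 6 in the other bins.

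Within quintiles of gene number the distal bins were still higher. The quintiles match gene number only coarsely. Bins with equal counts at a boundary were split, and counts in partial end bins were not scaled to width. In each of 5 quintiles of gene number the distal median exceeded that of the other bins, by 0.028 to 0.095 in WT replicate 1 and by 0.033 to 0.090 in KO. The mean over quintiles was 0.067 and 0.060 in WT and 0.062 in KO, against unmatched differences of 0.096, 0.092 and 0.076. Among bins with most genes (14 to 67), 87.2% of distal and 69.5% of other bins were above WT input. Among those with fewest (0 to 1), 16.1% and 9.29% were. Base composition of whole bins was not analysed here.

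**Figure D3:**
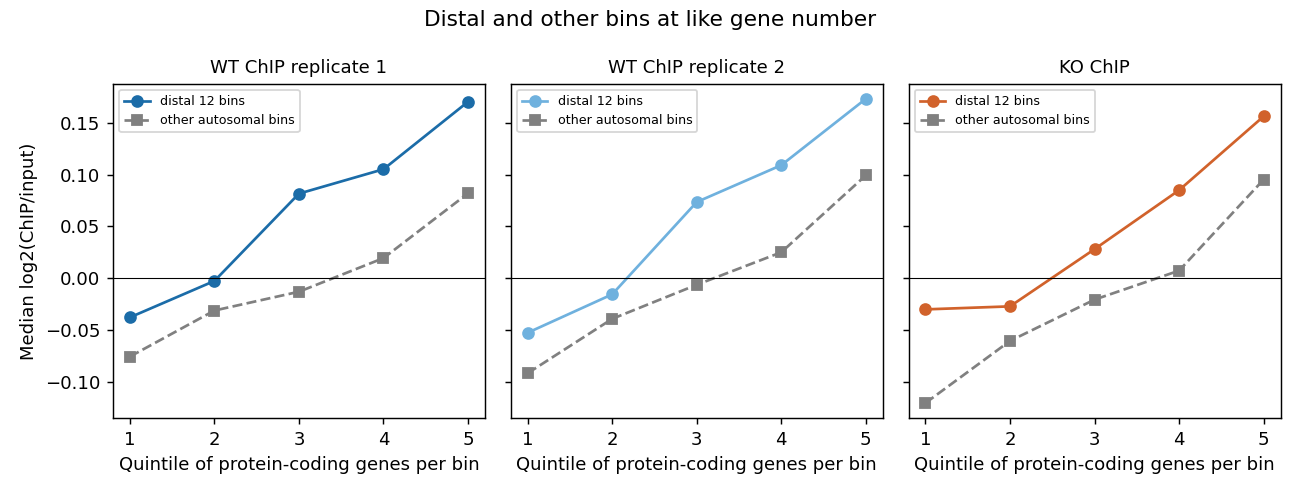
Median log2(ChIP/input) of distal and other autosomal bins (y axis) by quintile of protein-coding genes per bin (x axis, 5 has most genes), 1 panel per ChIP library. Both lines rise with gene number, and the distal line is above the other in every quintile of every library.

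The nucleolus organiser chromosomes of C57BL6, which carry ribosomal RNA genes near the centromere, had distal medians close to those of the rest. Their 60 distal bins (chromosomes 12, 15, 16, 18 and 19) had medians of 0.091 and 0.082 in WT and 0.053 in KO. The 168 distal bins of the other chromosomes had 0.085 and 0.084 in WT and 0.048 in KO. Of the former 34 were above WT input and 11 below, and of the latter 98 and 34.

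Counts for bins grouped by content stand beside the 57.9% of all distal bins, and 37.6 percent of all tested bins, that were above WT input, and the lists hold few bins. Distal bins with ribosomal protein genes had the highest WT medians of the lists. Of 10 such bins, 9 were above WT input and 0 below, with medians of 0.22 and 0.25 in WT and 0.19 in KO; they hold Rpl38, Rpl22, Rps21, Rpl13, Rplp2, Rpl14 and Rpl21 among others. The tenth, with Rpl41 and Rps26 on chromosome 10, had -0.0031 and 0.046. The name pattern also matched the kinase gene Rps6kc1, and 1 of the 10 bins (chromosome 1, 0.28 and 0.27 in WT) is counted through that gene alone. The 4 bins of imprinted loci were all above WT input (medians 0.20 and 0.19 in WT, 0.21 in KO), in a list whose genes all lie in distal bins. Also above were both sirtuin bins, both bins of telomere maintenance genes (Ten1, Rtel1) and the single bin with a histone gene (H1f7). Of 28 bins with zinc finger genes of the Zfp series, 20 were above and 1 below (0.10 and 0.093 in WT, 0.065 in KO).

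Receptor families and immunoglobulin genes had lower medians than the lists above. Of 5 bins with olfactory receptor genes 2 were above WT input and 2 below, and of 3 with vomeronasal receptor genes 1 was above and 2 below (medians -0.093 and -0.087; KO -0.027). The 4 bins of the immunoglobulin heavy chain locus had medians of 0.051 and 0.040 in WT and -0.014 in KO, with 2 above WT input and 0 below. All 3 vomeronasal bins were the most distal bins of their chromosomes, and the 2 olfactory bins below input were ranks 1 and 2 from the end of chromosome 10, positions that were low in general; the part of position in these values was not tested. The list of fibroblast genes had 0 distal bins. In the other autosomal bins the ribosomal protein list had 54 above and 15 below of 77 and the zinc finger list 98 and 23 of 166, with lower WT medians than at the distal ends (0.082 and 0.11 for the former, 0.047 and 0.061 for the latter). Telomere maintenance genes had 7 and 1 of 12 there, histone genes 8 and 1 of 14, olfactory receptor genes 26 and 25 of 76, and fibroblast genes 5 and 5 of 11. Other lists were lower distally than elsewhere: sirtuin bins had WT medians of 0.15 and 0.17 distally and 0.17 and 0.21 in the other 5 bins, of which 4 were above and 0 below. Vomeronasal bins elsewhere had 0.027 and 0.026, with 22 above and 11 below of 50, and the single immunoglobulin heavy chain bin elsewhere had 0.11 and 0.12. The imprinted list had 0 bins elsewhere, because the 13 genes chosen for it all lie in distal bins. It is not a survey of imprinted genes and does not show where others lie.

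Loci chosen for their function lay in bins above input in both genotypes, apart from Ighm in KO. The bin of Sirt7 itself, second from the end of chromosome 11 (120000001 to 121000000), had log2(ChIP/input) of 0.20 and 0.22 in WT and 0.26 in KO. Such a bin cannot show whether the gene is deleted, so it does not check the KO label. Sirt3, a mitochondrial sirtuin, lies in a bin with 0.097 and 0.11 in WT and 0.15 in KO (chromosome 7, 140000001 to 141000000). Gnas, an imprinted G protein gene, had 0.24 and 0.22 in WT and 0.18 in KO (chromosome 2, 174000001 to 175000000).

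The imprinted pair Igf2 and H19 had 0.20 and 0.21 in WT and 0.22 in KO, and the neighbouring bin of Cdkn1c and Kcnq1ot1 0.18 and 0.18 in WT and 0.19 in KO (chromosome 7, 142000001 to 144000000). Dlk1 and Meg3 had 0.19 and 0.18 in WT and 0.25 in KO (chromosome 12, 109000001 to 110000000), and Rtel1, a telomere helicase, 0.16 and 0.16 in WT and 0.13 in KO (chromosome 2, 181000001 to 182000000). Ighm had 0.13 and 0.13 in WT but 0.065 in KO, where it did not pass (edgeR quasi-likelihood, Benjamini-Hochberg adjusted p 0.144; chromosome 12, 113000001 to 114000000). None of these bins passed for WT minus KO in edgeR, with adjusted p from 0.378 to 0.923.

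The KO ChIP library measures what the antibody recovered from cells without SIRT7, as labelled. Its distal bins were above its other bins too, with medians of 0.052 and -0.024, a difference of 0.076 or 1.05-fold. With the WT-like share of reads subtracted the difference was 0.074. In KO 88 distal bins (38.6%) were above input and 33 (14.5%) below in the edgeR quasi-likelihood test with Benjamini-Hochberg adjustment, against a background of 21.6 percent above and 28.7 percent below over all tested bins, 50.2 percent in all. The other autosomal bins had 20.5% and 30.4%. Among them, ranks 13 to 24 had 39.0% above and 18.9% below. Other fits called fewer: limma-voom 56 and 7 (background 18.6 percent), edgeR with no dispersion floor 39 and 6 (14.3 percent) and a quasi-Poisson fit 12 and 0 (2.25 percent). More distal bins were above input than below in each, but the background of these other fits is not given by direction, so this balance has no comparison here.

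Many distal bins that were above input in WT were above it in KO. Among bins past the test, the 3 highest in KO were those of Ajap1 (0.51), Prdm16 (0.44) and Bmp7 (0.41), all among the 5 highest in WT. The Tmem196 bin, lowest in WT, had a KO value of 0.43 that did not pass (edgeR quasi-likelihood, Benjamini-Hochberg adjusted p 0.277). The lowest in KO past the test were the bin of Setbp1 on chromosome 18 (-0.27; WT -0.17 and -0.14), that of Fgf10 (-0.23) and a bin without a protein-coding gene named by the rule on chromosome 14 from 113000001 (-0.23; WT -0.094 and -0.096). Of the 132 distal bins above input in WT, 87 (65.9%) were above in KO as well, where 88 were in all; of the WT bins above input elsewhere on autosomes 53.4% were. Of the 45 distal bins below in WT, 27 (60.0%) were below in KO, where 33 were in all, against 66.3% elsewhere. A single distal bin was above in WT and below in KO, against 5 of the 2186 other autosomal bins. It held the zinc finger genes Zfp993, Zfp600 and Zfp981 and is named here after its values were seen. Over the 209 bins of ranks 2 to 12, which share gene number and base composition between genotypes, KO and mean WT values had a Pearson's r of 0.902. Over the 19 most distal bins it was 0.107, and over the 18 without the Tmem196 bin, left out after its value was seen, 0.666.

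**Figure D4:**
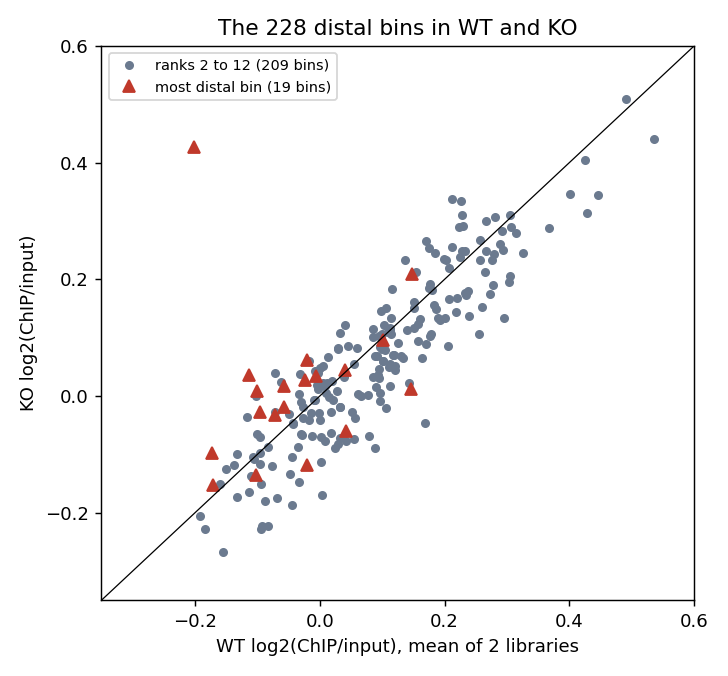
KO log2(ChIP/input) (y axis) against the mean of both WT libraries (x axis) for the 228 distal bins, with the most distal bins as triangles and the line of equal values. Ranks 2 to 12 follow the line, and the triangle far above it is the Tmem196 bin of chromosome 12, at -0.20 in WT and 0.43 in KO with 104 KO ChIP reads.

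WT minus KO, each genotype over its own input, is the comparison the design names. Its median over the distal bins was 0.020 and 0.022 with the WT libraries, and over the other bins 0.021 and 0.022, a gap of -0.0006 and 0.0003. Taken as a difference of medians, the distal excess was 0.096 and 0.092 in WT and 0.076 in KO, and with counts summed over bins WT minus KO was 0.012. The edgeR quasi-likelihood test called 7 distal bins with more signal in WT and 0 with less (Benjamini-Hochberg), which is 3.07% of 228. The background was 2.83 percent of all tested bins, 2.44 percent with more signal in WT and 0.387 percent with less, and a share so close to it is no result about chromosome ends. Unadjusted, 48 distal bins had a p under 0.05. That count was not made over all tested bins, so it has no background here. The direction was not stable: TMM scaling from autosomes gave 2 with more signal in WT and 3 with less (background 3.18 percent), DESeq2 gave 1 and 0 (0.232 percent) and limma-voom 0 and 1 (0.0387 percent). Both edgeR with no dispersion floor and the quasi-Poisson fit called 0 (0.00 percent of all tested bins). In them 15 and 1 distal bins had an unadjusted p under 0.05, again without a background.

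The largest called difference was in the bin of Dscam, a neuronal adhesion molecule, with the proteases Tmprss2 and Bace2 (chromosome 16, 97000001 to 98000000). It had 63273 and 61308 WT ChIP reads against 73138 in WT input, and 1828 KO ChIP reads against 82864 in KO input. The WT libraries gave log2(ChIP/input) of 0.16 and 0.18, above input, and KO gave -0.045, which did not differ from input past the threshold (edgeR quasi-likelihood, Benjamini-Hochberg adjusted p 0.339). The difference was 0.21 (SE 0.043; edgeR quasi-likelihood, Benjamini-Hochberg adjusted p 0.000328), and it was the single distal call that DESeq2 kept (adjusted p 0.0498).

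Other called bins had smaller differences. The zinc finger cluster of Zfp993, Zfp600 and Zfp981 had 0.10 and 0.073 in WT and -0.089 in KO (chromosome 4, 146000001 to 147000000). Grik1, a kainate receptor gene, lies in a bin with 0.011 and -0.0051 in WT and -0.17 in KO, on the same chromosome as Dscam (88000001 to 89000000). These 2 bins had WT minus KO of 0.18 and 0.17, with adjusted p of 0.00175 and 0.0111 in edgeR and 0.0928 and 0.18 in DESeq2. The bins of Map3k1 on chromosome 13 and Adgrl2 on chromosome 3, which the rule does not name for this comparison, had 0.15 and 0.14. With limma-voom all 7 were lost. Only the bins of Dscam and of the zinc finger cluster passed with TMM from autosomes (edgeR, adjusted p 0.00762 and 0.0158).

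The Tmem196 bin at the end of chromosome 12 (120000001 to 120129022) differed most in size but not past the error. It had 2193 and 2018 WT ChIP reads against 3226 in WT input, and 104 KO ChIP reads against 3342 in KO input. WT minus KO was -0.67 (SE 0.36; edgeR quasi-likelihood, Benjamini-Hochberg adjusted p 0.311); with limma-voom it was the single distal call (adjusted p 0.000852). Over the 19 most distal bins the median WT minus KO was -0.047 and -0.045, with 0 called by edgeR, and 11 of 19 were below 0 with both WT libraries.

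Reads assigned to each parental genome showed the distal excess on both. In WT replicate 1 the distal median exceeded that of the other bins by 0.092 for genome1 and 0.10 for genome2, and in replicate 2 by 0.090 and 0.098. In KO the excess was 0.097 for genome1 and 0.084 for genome2. For unassigned reads it was 0.058 and 0.064 in WT and 0.063 in KO. The labels do not say which of genome1 and genome2 is C57BL6.

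The balance between the genomes was close to that of input in WT. Pooled over distal bins, the genome1 share of allelic reads was 52.63% and 52.61% for WT ChIP where input had 52.46%, and 50.23% for KO ChIP where input had 50.21%. These pooled shares hide regional differences: in WT input the distal bins of chromosome 6 were mostly genome2 and those of chromosome 19 mostly genome1, and the KO input had other shares. Over the distal bins of a chromosome, WT ChIP moved the genome1 share by at most 0.48 and 0.50 percentage points in the WT libraries. KO ChIP moved it by -3.06 to 2.34 points, toward the WT input share on 17 of 19 chromosomes.

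**Figure D5:**
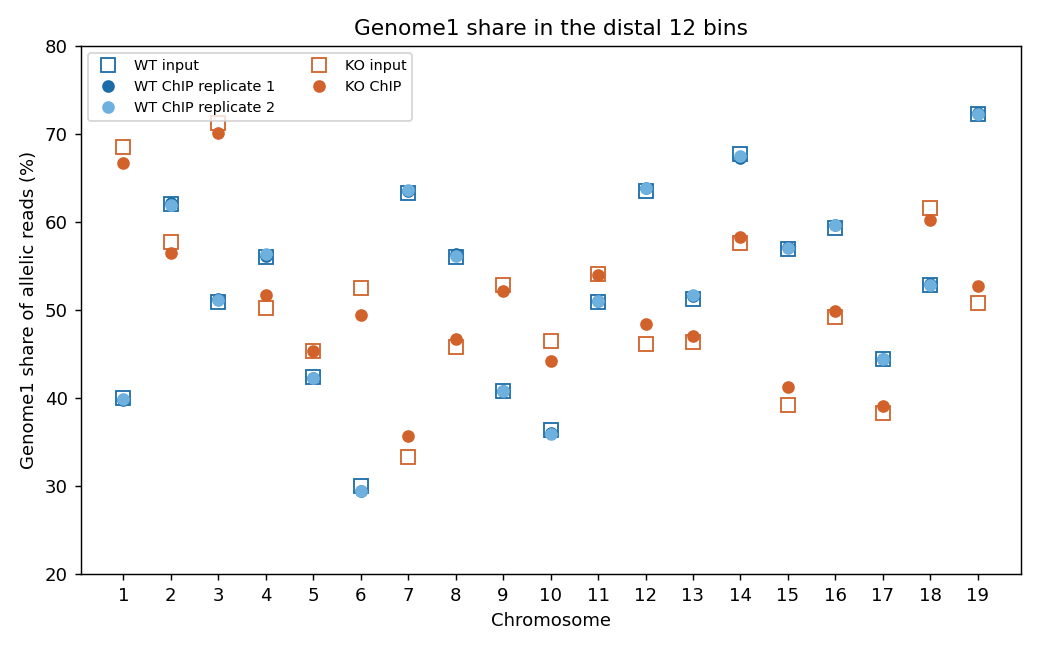
Genome1 share of allelic reads (y axis, percent) pooled over the distal 12 bins of each autosome (x axis), with inputs as open squares and ChIP libraries as filled circles. WT ChIP lies on WT input within 0.5 points, while KO ChIP is displaced from KO input toward the WT values on 17 of 19 chromosomes.

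The allelic edgeR fit, with library as a block, tested 227 distal bins. In WT it called 2 (0.881%), 1 in each direction, against a background of 3.57 percent of all tested bins including X, 2.95 percent with more genome1 in ChIP and 0.621 percent with less. In the bin of the potassium channel genes Kcnj16 and Kcnj2 (chromosome 11, 111000001 to 112000000) the genome1 share was 49.2% and 49.0% for WT ChIP, above the 46.1% of WT input. Its log2 ratio of genome1 to genome2 rose by 0.17 (SE 0.024; edgeR quasi-likelihood, Benjamini-Hochberg adjusted p 0.00191). In the bin of Atp23, Ctdsp2 and Lrig3 (chromosome 10, 126000001 to 127000000) genome1 had 32.2% and 32.1% in ChIP and 33.9% in input, and the ratio fell by 0.12 (SE 0.019; edgeR adjusted p 0.00508).

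In KO the allelic fit called 13 distal bins, 3 with more genome1 in ChIP and 10 with less, against a background of 4.50 percent (2.33 percent with more, 2.17 percent with less), and 12 of the 13 lay toward the WT input share. The bin of Kcnh1, Hhat and Syt14 on chromosome 1 (192000001 to 193000000) had a genome1 share of 61.0% in KO ChIP and 68.9% in KO input, while WT input had 40.8%. The bin of Kcnq1, the potassium channel gene of an imprinted cluster, had 39.6% in KO ChIP and 33.4% in KO input, while WT input had 63.5% (chromosome 7, 143000001 to 144000000). Both moved toward WT. With the WT-like share of reads subtracted, 6 distal bins were called in place of 13 (background 2.45 percent), and neither of these 2 passed (edgeR, adjusted p 0.0793 and 0.154). The share was fitted to the genome1 shift of these same libraries, so a fall in calls toward WT is built into the subtraction. The part of that share in the remaining calls was not tested.

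For WT minus KO the allelic fit compares the genotypes in the shift of the genome1 to genome2 ratio from input to ChIP. A higher shift in WT does not mean a larger genome1 share in WT ChIP. The shift differed in 6 distal bins (2.64%), 5 higher in WT than in KO and 1 lower. The background was 2.17 percent, with 1.13 percent higher and 1.05 percent lower. The largest difference was in the bin of Myrip, Ulk4 and the myelin gene Mobp (chromosome 9, 120000001 to 121000000). There the genome1 share was 41.2% and 40.3% in WT ChIP against 39.7% in WT input, and 45.1% in KO ChIP against 52.7% in KO input (difference 0.50, SE 0.085; edgeR quasi-likelihood, Benjamini-Hochberg adjusted p 0.0299). The bin of Adgrl2, a latrophilin, had 52.6% and 52.8% in WT ChIP against 51.9% in input, and 67.2% in KO ChIP against 73.1% in input. It is the single distal bin called both for total signal and for allelic shift between genotypes. In the bin of Rere, a transcriptional corepressor, the KO share rose from 52.7% in input to 58.4% in ChIP. With the WT-like share subtracted 3 bins were called (background 1.28 percent), and of the 4 named by rule the Myrip bin alone passed (edgeR, adjusted p 0.0473). Here too the subtracted share was fitted to the same allelic reads.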

How the data were processed

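SIRT7 ChIP and input DNA were sequenced in 5 libraries. Cells were fixed for 10 min with 1% formaldehyde and sheared to 300 to 500 bp, per the labels' protocols. The authors deposited whole-number counts of reads per 1 Mb bin, for all, genome1, genome2 and unassigned reads. The build mm10 and the tools Bowtie2 2.2.9, Trimmomatic 0.36, SAMtools 0.1.19 and FastQC 0.11.3 were used, per the submitters' processing notes; the method of allele assignment and the treatment of duplicates are not given in the sources used here. A second deposited table, of ratios, was not used.

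Autosomal and X bins whose mean reached 100 reads were fitted with edgeR 4.0.16 in R 4.3.3 (legacy quasi-likelihood, TMM, group means, Benjamini-Hochberg, threshold 0.05). Only the WT ChIP pair gives residual spread (1 degree of freedom), which was taken to hold for the unreplicated groups too. A dispersion floor of 1e-04 was kept from an earlier analysis, which set it after seeing calls because of a numerical error in the deviance under it. Allele counts were fitted with a library block. Values given as log2(ChIP/input) are log2(CPM + 1), ChIP minus input of the same genotype. The scripts were tested on simulated data.

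The members and lists were chosen with earlier results of these data known. Bins named were the 10 highest and 5 lowest in WT over input, the 3 highest and 3 lowest in KO, up to 5 of each in WT minus KO and up to 3 of each per allelic contrast, among calls (in WT with both libraries on the same side), and the bins of fixed loci. Up to 3 genes with the longest overlap are named per bin; some bins and genes that the rule names are not reported here. Lists were ribosomal protein, sirtuin, imprinted, zinc finger, olfactory, vomeronasal, immunoglobulin heavy chain, telomere maintenance, histone and fibroblast genes, gene-number quintiles and nucleolus organiser chromosomes. Genes were placed with RefSeq GRCm38.p6. Each result was recomputed with other scalings, floors, count minimums, pseudocounts and bin sets, DESeq2 1.42.0, voom of limma 3.58.1, a quasi-Poisson fit, and KO ChIP less the WT-like share. The last of these for allele counts, and the fit without KO ChIP, were chosen after seeing the data. Counting errors do not cover duplicate molecules.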

Additional observations from a re-analysis of the deposited data

Results flagged for a closer look

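The difference between genotypes itself, (WT ChIP over WT input) minus (KO ChIP over KO input), passed the edgeR quasi-likelihood test in 7 distal bins, all of which rest on 1 shallow KO ChIP library. That is 3.07% of distal bins, close to the 2.83 percent of all tested bins. With no dispersion floor and with quasi-Poisson 0 were called, and limma-voom kept none of the 7. Among the 7, on the log2 scale, the difference was 0.21 for Dscam, Tmprss2 and Bace2 (chromosome 16), 0.18 for Zfp993, Zfp600 and Zfp981 (chromosome 4), 0.17 for Grik1, Cldn8 and Krtap24-1 (chromosome 16), 0.15 for Map3k1, Gpbp1 and Mier3 (chromosome 13) and 0.14 for Adgrl2 (chromosome 3). The same test on the log2 ratio of genome1 to genome2 passed in 6 distal bins, or 2.64%, against 2.17 percent of all tested bins. With no dispersion floor and with quasi-Poisson 0 distal bins passed. The differences in the 6 bins were 0.50 for Myrip, Ulk4 and Mobp (chromosome 9), 0.45 for Adgrl2, 0.39 for Zfp516 (chromosome 18), 0.33 for Ppm1h, Srgap1 and Rxylt1 (chromosome 10), 0.28 for Dido1, Lama5 and Osbpl2 (chromosome 2) and -0.34 for Rere, Tnfrsf9 and Slc2a5 (chromosome 4). In the bin of Dido1, genome1 had 51.8% in KO ChIP against 57.2% in KO input and 61.1% in WT input, so KO ChIP moved away from the WT share there.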

How the results depend on the processing

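The excess of distal over other bins kept its direction in each ChIP library under every alternative run. In WT replicate 1, WT replicate 2 and KO it was 0.091, 0.077 and 0.071 with summed counts, 0.10, 0.10 and 0.085 without the most distal bin, 0.055, 0.056 and 0.047 with 6 bins per autosome, and 0.067, 0.060 and 0.062 at the same quintile of gene number. With 24 bins it was 0.081 and 0.085 in WT. For WT minus KO it was 0.0010, and 0.012, 0.0052, -0.015 and -0.0033 with summed counts, without the most distal bin, with 6 and with 24 bins. Leaving out each WT library in turn gave -0.0006 to 0.0003; call counts could not be tested then, since 0 residual degrees of freedom remain.

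The WT share of distal bins called (77.6%) stayed between 70.2% and 80.9%. For KO (53.1%), limma-voom gave 27.6%, edgeR without a floor 19.7% and a quasi-Poisson fit 5.26%. For WT minus KO (3.07%) it was 1.75% with DESeq2 size factors and with 6 bins, 0.877% with library totals, 0.439% with DESeq2 and with limma-voom, 0% with no floor and quasi-Poisson, 12.3% with a floor 2 times as high and 5.26% with the WT-like share subtracted. In the order allelic WT, KO and WT minus KO (0.881%, 5.73% and 2.64%), no floor gave 3.08%, 0% and 0%. Allelic KO and WT minus KO gave 11.5% and 8.37% with the higher floor, 0% and 0% with quasi-Poisson, and 2.64% and 1.32% with the WT-like share subtracted. A minimum of 1000 reads gave allelic WT 1.35% and KO 9.42%. At an unadjusted p under 0.05 the allelic KO and WT minus KO contrasts had 18 and 20 distal bins with no floor. With quasi-Poisson they had 25 and 18. No background was counted for these. The cause of the changes between settings was not tested. No paired analysis was possible because replicate numbers exist only in the WT ChIP group. KO depth limits single KO values to a median counting error of 0.034.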

Other observations

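The inputs differed by genotype at some chromosome ends. In the distal bins of chromosome 11 WT input exceeded KO input 1.11-fold, against 1.02-fold in that chromosome's other bins, and on chromosome 2 the values were 0.966 and 1.00. The genes of the distal end of chromosome 11, Sirt7 included, thus had more WT than KO input. Its distal WT minus KO medians were -0.027 and -0.0049, against 0.014 and 0.021 in its other bins; the part of the input difference in these values was not tested.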
